A study of Mus musculus with 5 samples.

Results

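Globin genes encode the protein chains of haemoglobin, and the 7 genes described here are the embryonic genes Hba-x, Hbb-bh1 and Hbb-y and the adult-type genes Hba-a1, Hba-a2, Hbb-bt and Hbb-bs. They were chosen by name, as 7 of the 24411 gene rows of the count table, and 4 of them had at least 1 unique molecular identifier (UMI, a tag that counts molecules) in the cells kept. The cells came from wild-type C57BL/6 mouse embryos, in 2 batches at embryonic day 9.5 (E9.5) and 3 at embryonic day 10 (E10). Blood was drawn from the heart, and cells lacking the surface proteins TER119, CD41, CD43 and CD45 on the sort were picked singly by hand. All groups shared this genotype, strain and sort, no treatment is recorded, and nothing says whether batches came from separate litters. The p-values therefore refer to these batches alone.

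A haemoglobin molecule pairs alpha-type with beta-type chains around haem. In the mouse, the first, primitive red cells form in the yolk sac and circulate as large nucleated cells that use zeta (Hba-x) with the beta-type chains beta-H1 (Hbb-bh1) and epsilon-y (Hbb-y). Adult-type alpha chains are known to accompany zeta in these cells, and definitive red cells of the fetal liver later use adult-type alpha and beta chains. TER119 marks maturing red cells, so the sort was directed away from the cells in which globin is most abundant.

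Of 480 wells 294 held at least 1000 genes and 30000 UMIs and were kept, in the order of the batches (E9.5 replicates 1 and 2, then E10 replicates 1, 2 and 3) 26, 46, 87, 72 and 63. A kept cell had a median of 308924 UMIs and 7391.5 genes, and the batches held between 7545860 and 44415800 UMIs in kept cells. All 5 batches used the same 96 well numbers, so 90 numbers occur among the kept cells of more than 1 batch. No kept well repeated the profile of its namesake in a different batch at under 10% of the UMIs, although 23 wells did so among those with at least 5000 UMIs, 20 of them in E10 replicate 2. The gene of CD45, Ptprc, had 0 UMIs in kept cells, whereas that of CD43, Spn, had 321 and that of CD41, Itga2b, had 585.

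Cells were split by Alas2 alone, the gene of the red cell form of the first enzyme of haem synthesis, so that no globin gene entered the classes. At least 400 CPM (counts scaled to a total of 1000000 UMIs per cell) put 46 cells into the Alas2-high class and left 248 other cells. The highest other cell had 343 CPM and the lowest Alas2-high cell 616 CPM, both in E10 replicate 2, where 43 of 49 other cells lay between 100 and 400 CPM. The class held 1, 10, 1, 23 and 11 cells in the batches in order, so in E9.5 replicate 1 and E10 replicate 1 its value is that of a single cell. The 7 listed erythroid markers other than Alas2 with a row in the table include Slc4a1, Klf1, Gata1 and Rhag, and Alas2-high cells had a median of 688 CPM of the anion exchanger gene Slc4a1 and 348 CPM of the transcription factor gene Klf1. All 46 reached 20 CPM in 7 or 8 of the 8 erythroid markers, Alas2 included, and 0 of 46 did so for any macrophage or endothelial marker. At least 4 of 6 neural or neural crest markers reached that level in 2 of the 46, and mesenchymal markers in none numbered more than 3.

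The embryonic and adult-type genes differ enough in sequence for reads to be told apart, whereas the adult-type genes come in near-identical pairs. The alpha-type genes lie on chromosome 11, with Hba-x at chr11:32276400-32278116, Hba-a1 at chr11:32283511-32284465 and Hba-a2 at chr11:32296489-32297298, all on the forward strand of GRCm38 and all annotated as protein-coding by GENCODE. The beta-type genes lie on the reverse strand of chromosome 7, with Hbb-bt at chr7:103812524-103813996, Hbb-bs at chr7:103826534-103828096, Hbb-bh1 at chr7:103841637-103843164 and Hbb-y at chr7:103851749-103853216. The first 60 coding bases are shown because they let the kinds be compared by eye, with capitals where a base differs from Hba-a1 (for Hba-x) or from Hbb-bs (for Hbb-y and Hbb-bh1).
Hba-a1: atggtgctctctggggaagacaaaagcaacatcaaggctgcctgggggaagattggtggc
Hba-x: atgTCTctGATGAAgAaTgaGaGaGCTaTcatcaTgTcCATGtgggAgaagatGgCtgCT
Hbb-bs: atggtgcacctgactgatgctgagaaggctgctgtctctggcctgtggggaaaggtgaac
Hbb-y: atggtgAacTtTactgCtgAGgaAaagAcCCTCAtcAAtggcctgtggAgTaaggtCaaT
Hbb-bh1: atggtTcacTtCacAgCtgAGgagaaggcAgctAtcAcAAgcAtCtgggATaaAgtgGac
In this stretch Hba-x differed from Hba-a1 at 28 bases, Hbb-y from Hbb-bs at 19 and Hbb-bh1 from Hbb-bs at 18. Hba-a2 has the same 60 bases as Hba-a1, and Hbb-bt the same as Hbb-bs. Over the whole coding sequence Hba-a1 and Hba-a2 were 99.8% identical, with 1 base different, and Hbb-bt and Hbb-bs likewise differed at 1 base, whereas Hba-x was 61.7% identical to Hba-a1 and Hbb-bh1 76.4% identical to Hbb-y. None of the 50-base windows of the Hba-x, Hbb-bh1 or Hbb-y transcript occurred in a transcript of another gene. In the last 300 bases, where oligo-dT primed libraries hold most reads, 80.1% of the windows of Hba-a1 and 73.7% of those of Hba-a2 occurred in the other copy. For Hbb-bt and Hbb-bs the shares were 36.3% and 36.7%. With windows of 100 bases they were 20.4% and 20.9%, against 50.2% and 42.3% for Hba-a1 and Hba-a2.

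Embryonic globin led the genes counted in every Alas2-high cell. In all 46 of them an embryonic globin was the highest of all gene rows, of which 0 carry the mt- prefix of mitochondrial genes. The 3 embryonic genes together took between 9.14% and 27.4% of the UMIs of a cell, with a median of 18.6%. Summed over Alas2-high cells, Hbb-y stood at 44958 and 51679 CPM in the E9.5 batches and at 75474, 78490 and 71193 CPM in the E10 batches. Hba-x stood at 33523 and 38932 CPM at E9.5 and at 61568, 58426 and 57772 CPM at E10. Hbb-bh1 stood at 36906 and 38535 CPM at E9.5 and at 59649, 46742 and 60316 CPM at E10. Hbb-y led in each batch and was the highest of the 3 in 46 of 46 cells, while Hba-x and Hbb-bh1 changed places between batches. These levels are counts of tags at the 3′ ends of transcripts and carry no correction for length.

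The 3 genes rose and fell together from cell to cell. Within the Alas2-high cells of a batch, Spearman's rho between the CPM of Hba-x and Hbb-y was 0.99 over the 10 cells of E9.5 replicate 2, and 0.97 over both the 23 cells of E10 replicate 2 and the 11 of E10 replicate 3. For Hbb-bh1 and Hbb-y it was 0.99, 0.78 and 0.97. The genes share the total of the cell, so these values describe the cells and are not tests. The globin share was lowest in the cells with most UMIs, with a rho of -0.92, -0.86 and -0.93 in the same 3 batches. The level of Alas2 did not follow that of globin among these cells, with a rho of -0.08, -0.17 and -0.07.

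**Figure D1:**
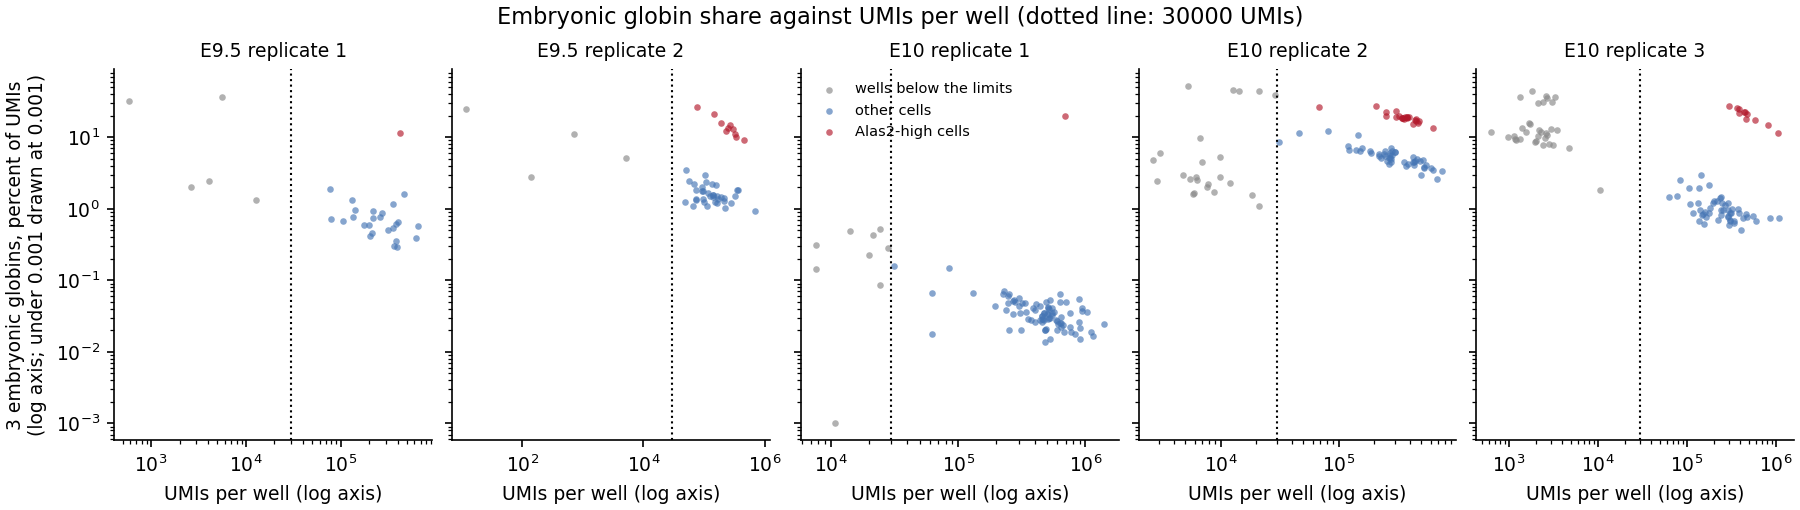
Embryonic globin as percent of the UMIs of a well (log axis) against UMIs per well (log axis) in each batch, red for Alas2-high cells, blue for other cells, grey for wells below the limits and a dotted line at 30000 UMIs. Within both classes the share is lower in wells with more UMIs, and the grey wells reach 51.8%, in a well of E10 replicate 2 that repeats its namesake in a different batch.

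**Figure D2:**
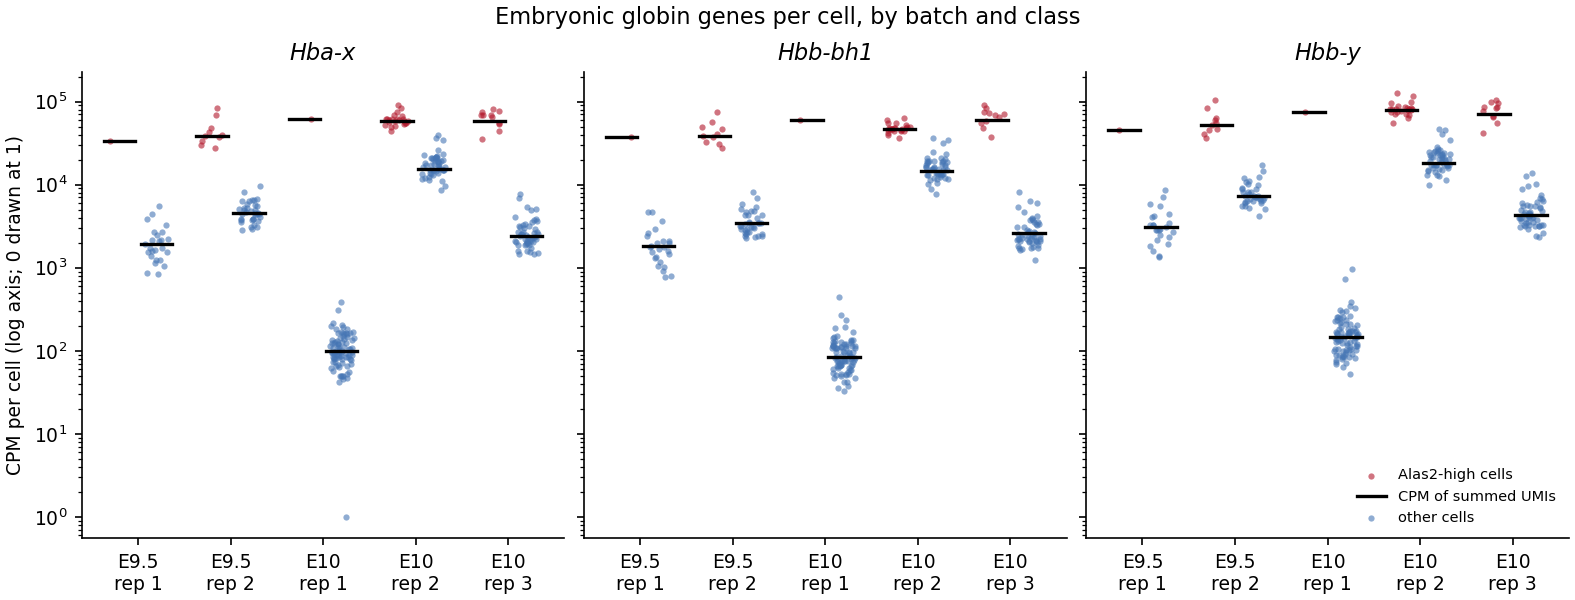
CPM per cell (log axis) of Hba-x, Hbb-bh1 and Hbb-y in the 5 batches, with red points for Alas2-high cells, blue points for other cells and black bars for the CPM of the summed UMIs of a batch and class. Alas2-high cells lie between 27403 and 125143 CPM for each gene in all batches, while the level of other cells differs between batches, lowest in E10 replicate 1 and highest in E10 replicate 2.

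The number of different UMI tags limits how high such counts can go. A UMI of 8 bases allows 65536 tags, and Hbb-y alone reached 52532 UMIs in 1 cell, which is 80.2% of them, with a median of 46.0% over the Alas2-high cells. The medians for Hba-x and Hbb-bh1 were 34.0% and 27.1%. Correcting each count for tags used more than once raised Hbb-y by a median of 1.34-fold and by at most 2.02-fold in Alas2-high cells, against at most 1.08-fold in other cells. The deposited counts of Alas2-high cells were thus below the corrected ones, most so for Hbb-y. After the correction the rho of globin share with UMIs per cell was -0.92, -0.73 and -0.86.

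The adult-type genes were at or near 0. Hba-a1, Hbb-bt and Hbb-bs had 0 UMIs in all 480 columns. Hba-a2 had 10 UMIs in 6 kept cells, 8 of them in 4 Alas2-high cells and 2 in 2 other cells. The cell with most, of E10 replicate 2, held 5 UMIs of Hba-a2 beside 23793 of Hba-x. Of alpha-type UMIs in Alas2-high cells, adult-type UMIs thus made up between 0.000354% and 0.00161% by the exact (Clopper-Pearson) 95% interval, which, like the limits that follow, covers counting error only.

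The ratio of embryonic to adult-type UMIs in Alas2-high cells was 392187, from 3137496 embryonic and 8 adult-type UMIs. It was 335179 in E9.5 replicate 2, on 1 adult-type UMI, and 219501 in E10 replicate 2, on 7. With 0 adult-type UMIs and the 3 counts that 0 allows, it was at least 16246 in E9.5 replicate 1, at least 45634 in E10 replicate 1 and at least 360055 in E10 replicate 3. Bounds and ratios on so few UMIs set no order between the stages, and the ratio was not tested. In other cells the ratio was 526526, on 2 adult-type UMIs. How the counting treated reads that match both copies of a pair is not given in the sources used here, and the part of such reads in the low adult-type counts was not tested. A count of 0 in these rows is therefore not read as absence of adult-type globin RNA from the cells. The share of 50-base windows in common near the 3′ end was smaller in the beta-type pair (36.3% and 36.7%) than in the alpha-type pair (80.1% and 73.7%). These shares are among GENCODE transcripts. The counts also have rows for Hbb-b1 and Hbb-b2, for which GENCODE gave no position, so sharing among the beta-type rows counted can differ. What such sharing did to the counts of either pair was not tested.

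Rows of the wider globin family were also low, with 1 exception. Hbq1b, a theta-type gene of the alpha cluster, had 2815 UMIs in 45 of 46 Alas2-high cells and 377 UMIs in 93 of 248 other cells, with sums per batch of 96.3 to 190 CPM and 0.366 to 16.9 CPM. Its close copy Hbq1a had 13 UMIs in kept cells. Hbb-bh2, a further beta-type gene, had 71 UMIs, all in 5 Alas2-high cells of E10 replicates 2 and 3. Of these, 45 were in 4 cells of replicate 2 and 26 in 1 cell of replicate 3. Other cells had 0. Total UMIs in these 2 batches were 8366176 and 5706680 in Alas2-high cells and 15901819 and 14474413 in other cells. Hbb-b1 and Hbb-b2 had 0 UMIs. The globins outside red cells were scarce as well, with 491 UMIs of cytoglobin (Cygb) in 37 other cells and 3 in 2 Alas2-high cells, 71 UMIs of neuroglobin (Ngb) in 11 other cells and 4 in 2 Alas2-high cells, and 35 and 0 UMIs of myoglobin (Mb).

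Embryonic globin UMIs were also present in the other cells, at a level that depended on the batch. All 3 genes had UMIs in 247 of 248 other cells. Together they made up 0.688% and 1.53% of the summed UMIs of other cells in the E9.5 batches and 0.0329%, 4.82% and 0.931% in the E10 batches. In single cells the share ran from 0.0136% to 12.2%, with a median of 0.842%, and 3 cells, all of E10 replicate 2, exceeded the lowest Alas2-high cell. Summed levels of Hbb-y differed 124-fold between the highest and the lowest batch in other cells and 1.75-fold in Alas2-high cells. Thinned to 30000 UMIs per cell, every other cell outside E10 replicate 1 still had UMIs of Hba-x, Hbb-bh1 and Hbb-y. In E10 replicate 1 the shares of cells with a UMI were 89.5%, 95.3% and 97.7% thinned and 98.8%, 100% and 100% unthinned.

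**Figure D3:**
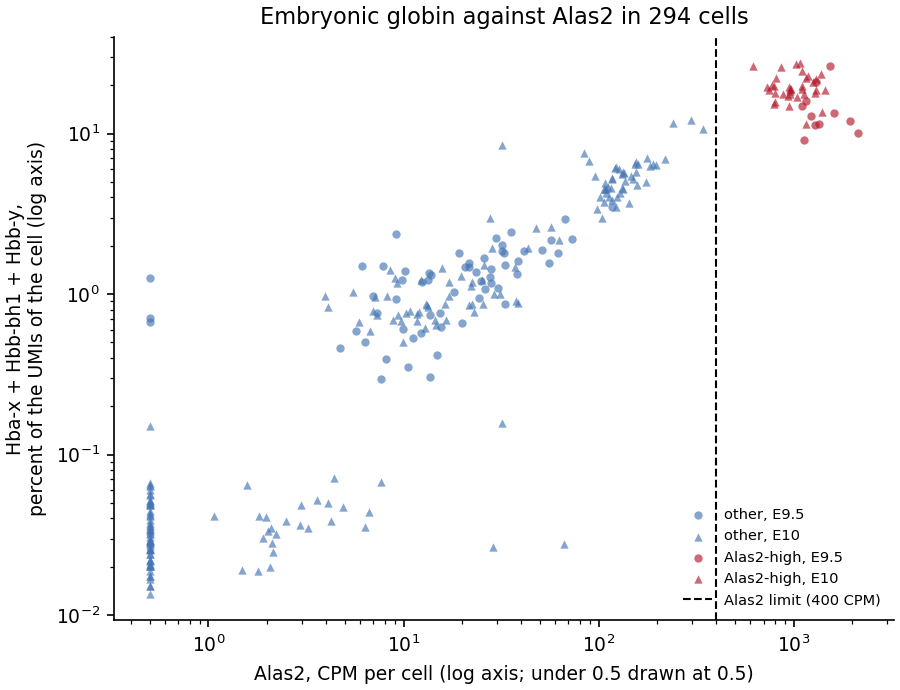
Embryonic globin as percent of the UMIs of a cell (log axis) against Alas2 CPM (log axis) in 294 cells, with circles for E9.5, triangles for E10 and a dashed line at the limit of 400 CPM. Alas2-high cells form a group to the right with 9.14% to 27.4% globin, and other cells with more Alas2 hold more globin.

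Erythroid markers were most frequent in the batch whose other cells held most globin. All 49 other cells of E10 replicate 2, the batch with most globin in this class, had at least 4 of the 7 erythroid markers besides Alas2 at 20 CPM or more. In the batches in order 0 of 25, 8 of 36, 0 of 86, 49 of 49 and 5 of 52 other cells did. The match was partial, as replicate 1 of E9.5 and of E10 both had 0 such cells, at 0.688% and 0.0329% globin. E10 replicate 1, with 1 Alas2-high cell among 87 kept, had the least globin in its other cells, and E10 replicate 2, with 23 among 72, the most. The part of red cell RNA from outside the cell in these levels was not tested.

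Globin UMIs were not limited to cells with erythroid markers. Other cells with none of the 7 erythroid markers besides Alas2 at 20 CPM numbered 6, 3, 23, 0 and 16 in the batches in order. The lowest globin share of any other cell was 0.0136%. In E10 replicate 3, 18 other cells with at least 4 of 6 neural or neural crest markers had a median globin share of 0.876%, against 0.776% in 7 cells with none. In E10 replicate 1 the medians were 0.0343% in 8 such cells and 0.0324% in 14 cells with none. The 23 cells of E10 replicate 3 with at least 4 of 6 mesenchymal markers had a median of 0.995%, against 0.774% in 16 cells with none. Median depths in these 6 sets of cells were 295638, 321318, 289504, 480492, 204141 and 322270 UMIs in the order given. All other cells of E10 replicate 2 had erythroid markers. There the median was 6.47% in 3 cells with at least 4 neural or neural crest markers and 4.99% in 26 with none. Median depths were 278750 and 337848 UMIs. In both E9.5 batches the neural or neural crest comparison went the other way. The medians were 0.631% in 2 such cells and 0.660% in 17 with none in replicate 1. They were 1.25% in 6 such cells and 1.53% in 10 with none in replicate 2. Median depths of these sets were 225304, 259825, 215114 and 129258 UMIs in the order given. Whether this globin RNA came from the cells themselves was not tested.

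Among the other cells, globin was accompanied by fewer red cell transcripts than in Alas2-high cells in most batches. For each 1000 embryonic globin UMIs, Alas2 had 11.7, 11.1, 5.62, 5.52 and 5.74 UMIs in Alas2-high cells of the 5 batches in order. In other cells it had 2.22, 1.79, 5.97, 2.68 and 1.72, lower in all batches but E10 replicate 1, which holds 86 UMIs of Alas2 in its other cells. The class was chosen by Alas2, so these ratios describe the classes and are not a test. Slc4a1, which the classes did not use, had 6.05, 4.87, 3.88, 4.34 and 4.20 UMIs for each 1000 in Alas2-high cells and 1.16, 0.838, 1.81, 2.23 and 0.965 in other cells, lower in all 5 batches. The erythroid transcription factor gene Klf1 went the other way in 4 batches, with 2.995, 0.402, 1.70 and 2.32 in Alas2-high cells and 6.10, 1.53, 2.69 and 6.13 in other cells of E9.5 replicate 2 and E10 replicates 1, 2 and 3.

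Alas2-high cells held more of each embryonic globin than other cells in every batch. The 3 genes summed were 16.8-fold, 8.47-fold, 597-fold, 3.81-fold and 20.3-fold higher in the batches in order. Of 8063 genes with a mean of at least 10 CPM, 5.08% were likewise higher in all 5 batches. The mean log2 difference was 4.59 ± 2.81 (SD, n = 5 batches) for Hba-x, 4.70 ± 2.90 for Hbb-bh1 and 4.37 ± 2.71 for Hbb-y. For each gene the exact paired permutation test gave p = 0.062 (two-sided), the smallest value that 5 batches can give.

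With counts summed per batch and class in the 3 batches that held at least 5 cells of both (E9.5 replicate 2 and E10 replicates 2 and 3), edgeR's quasi-likelihood test with batch as a block called all 3 embryonic genes. The log2 fold change was 4.06 (SE 0.46) for Hba-x, 4.13 (SE 0.46) for Hbb-bh1 and 3.87 (SE 0.46) for Hbb-y, with Benjamini-Hochberg adjusted p of 6.4e-17, 2.8e-17 and 3.0e-15. The edgeR fit estimates spread with the help of all genes tested, so these SE are not those of the 3 batches alone. DESeq2 on the same sums gave 4.08 (SE 1.12), 4.15 (SE 1.16) and 3.88 (SE 1.11), with adjusted p of 0.0022, 0.0026 and 0.0034. The 4 adult-type genes did not pass the filter on low counts. The edgeR test called 23.5% of the 12238 genes tested, and 12% as higher. Without E9.5 replicate 2 none of the 3 genes passed the threshold, with log2 fold changes of 4.11, 3.98 and 3.96 and adjusted p of 0.18, 0.19 and 0.23.

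Genes of red cells rose with the globins in this comparison. The lists below were chosen with earlier results known and are described by counts, beside a median log2 fold change of -0.23 over all genes tested. Of 20 tested genes of haem synthesis and iron other than Alas2, 17 were higher and 0 lower, with a median log2 fold change of 2.74. The mitochondrial iron importer gene Slc25a37 rose most, by a log2 fold change of 4.87 (SE 0.33), from 75.5 ± 70.8 to 1635 ± 141 TMM-scaled CPM (SD, n = 3 batches). Abcb10, its partner in the mitochondrial membrane, rose by 3.76, and the haem enzyme genes Uros and Fech by 3.76 and 3.66.

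Of 15 tested red cell membrane genes 14 were higher and 0 lower, with a median log2 fold change of 3.73. Among them were Slc4a1 at 5.91 and the membrane skeleton genes Dmtn at 4.88 and Sptb at 4.43. Slc4a1 went from 33.0 ± 43.3 to 1003 ± 109 TMM-scaled CPM. Of 7 tested genes of globin chaperones and translation 4 were higher, led by Eif2ak1, the haem-regulated kinase that slows globin translation, at 2.30, followed by Usp15 at 1.49, Atf4 at 1.22 and the chaperone Hspa9 at 0.85.

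Erythroid regulators were split, with 12 of 24 higher and 6 lower. Higher were the red cell factors Tal1 (log2 fold change 3.39), Nfe2 (3.09), Klf1 (2.96), the erythropoietin receptor gene Epor (2.89) and Zfpm1 (2.33), the gene of the GATA1 partner FOG1. Lower were genes of earlier progenitors and of globin switching, Kit (-3.17), Bcl11a (-2.96), Gata2 (-2.82), Myb (-2.77) and Sox6 (-2.61). Bcl11a, a repressor of embryonic beta-type globin genes in definitive red cells, stood at 9.19 ± 6.23 TMM-scaled CPM in Alas2-high cells and 67.0 ± 29.1 in other cells. The other cells include many cells outside the blood lineage, so these differences are between mixed classes.

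**Figure D4:**
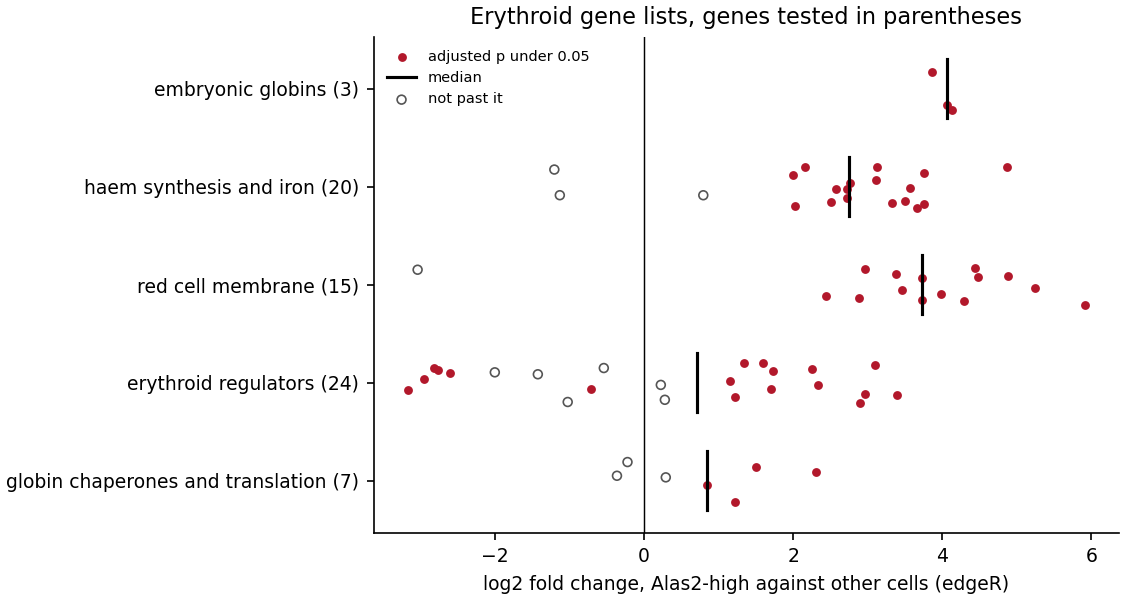
Log2 fold changes of Alas2-high against other cells for the 3 embryonic globins and for the tested genes of 4 erythroid lists, with filled points past an adjusted p of 0.05, open points not past it and black bars at the median. The globins lie between 3.87 and 4.13, near the median of the red cell membrane genes (3.73) and above that of haem synthesis and iron (2.74).

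Across stages, the globin levels of Alas2-high cells did not overlap when summed by batch, while single cells did, with 9.14% to 26.2% globin in E9.5 replicate 2, 13.7% to 27.0% in the second E10 batch and 11.4% to 27.4% in the third. Summed, the 3 genes made up 11.5% and 12.9% of UMIs in the E9.5 batches and 19.7%, 18.4% and 18.9% in the E10 batches, 1.55-fold higher on the mean log2 scale. All 3 E10 batches lay above both E9.5 batches for Hba-x, Hbb-bh1 and Hbb-y alike, as they did for 11.7% of 6321 genes with a mean of at least 10 CPM. The exact permutation test of the batches (two-sided) gave p = 0.1 for the sum, for Hba-x and for Hbb-y, the smallest value that 2 against 3 batches can give, and p = 0.2 for Hbb-bh1. The E9.5 side rests on 10 cells of replicate 2 and a single cell of replicate 1. The tag correction enlarged the difference to 1.88-fold. Median depth of Alas2-high cells was 422398 and 260528 UMIs at E9.5 and 696027, 363756 and 445741 at E10, and its part in the stage difference was not tested.

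In the fit to batches with at least 5 such cells, 1 at E9.5 and 2 at E10, no member passed the threshold. The log2 fold change of E10 over E9.5 was 0.47 (SE 0.69) for Hba-x, 0.38 (SE 0.68) for Hbb-bh1 and 0.42 (SE 0.71) for Hbb-y, with adjusted p of 0.93, 0.95 and 0.95 (edgeR quasi-likelihood test, Benjamini-Hochberg). The single E9.5 batch is assumed to vary like the E10 batches. The fit called 32 of 10702 genes, which is 0.299%. Of 21 genes of haem synthesis and iron 0 were called, of 15 red cell membrane genes the tropomodulin gene Tmod1 was lower (-3.13), and of 24 regulators Klf2, a factor known to act on embryonic globin genes in mouse primitive red cells, was lower (-2.46), from 75.2 to 13.5 ± 9.66 TMM-scaled CPM (n = 1 and 2). Both calls were lost with a minimum of 1 cell, which brings in both E9.5 batches (adjusted p = 1.00 each), with DESeq2 (0.17 for Tmod1 and 0.28 for Klf2) and at an Alas2 limit of 100 CPM (0.33 and 0.99), and that of Tmod1 also at 1000 CPM (0.23) and with no filter on low counts (0.058).

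In other cells the stages overlapped, and no member passed the threshold. The log2 fold change of E10 over E9.5 was 0.88 (SE 1.52) for Hba-x, 1.10 (SE 1.52) for Hbb-bh1 and 0.50 (SE 1.42) for Hbb-y, with edgeR's quasi-likelihood adjusted p of 0.88, 0.84 and 0.93. E10 replicate 2 set the sign, for without it the 3 values were -1.57, -1.18 and -1.45. The mean of log2 CPM over all 5 batches also differed in the opposite direction, by -0.95 for the 3 genes summed. The fit called 0% of 13904 genes, with 1365 at an unadjusted p under 0.05 and 250 called by DESeq2.

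The balance between the 2 embryonic beta-type genes differed between classes within batches, though not always in the same direction. Hbb-bh1 made up 45.1% and 42.7% of Hbb-bh1 and Hbb-y UMIs in Alas2-high cells of the E9.5 batches and 44.1%, 37.3% and 45.9% in those of the E10 batches. In other cells it made up 36.8% and 32.2% at E9.5 and 36.4%, 44.4% and 37.9% at E10. The share was higher in Alas2-high cells in 4 batches and lower in E10 replicate 2. In that batch the classes did not overlap, with 30.5% to 39.8% in 23 Alas2-high cells and 41.9% to 48.7% in 49 other cells. They did not overlap in the opposite direction in E9.5 replicate 2, with 40.2% to 45.3% in 10 Alas2-high and 28.2% to 39.8% in 36 other cells. Nor did they in E9.5 replicate 1, with 45.1% in 1 Alas2-high cell and at most 39.8% in 25 other cells. The mean difference was 5.47 percentage points (exact paired permutation test, two-sided, n = 5 batches, p = 0.125, and 0.28 after Benjamini-Hochberg adjustment over 3 shares). After the tag correction it was 3.09 points (exact p = 0.5), with 34.3% in Alas2-high and 44.2% in other cells of E10 replicate 2.

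**Figure D5:**
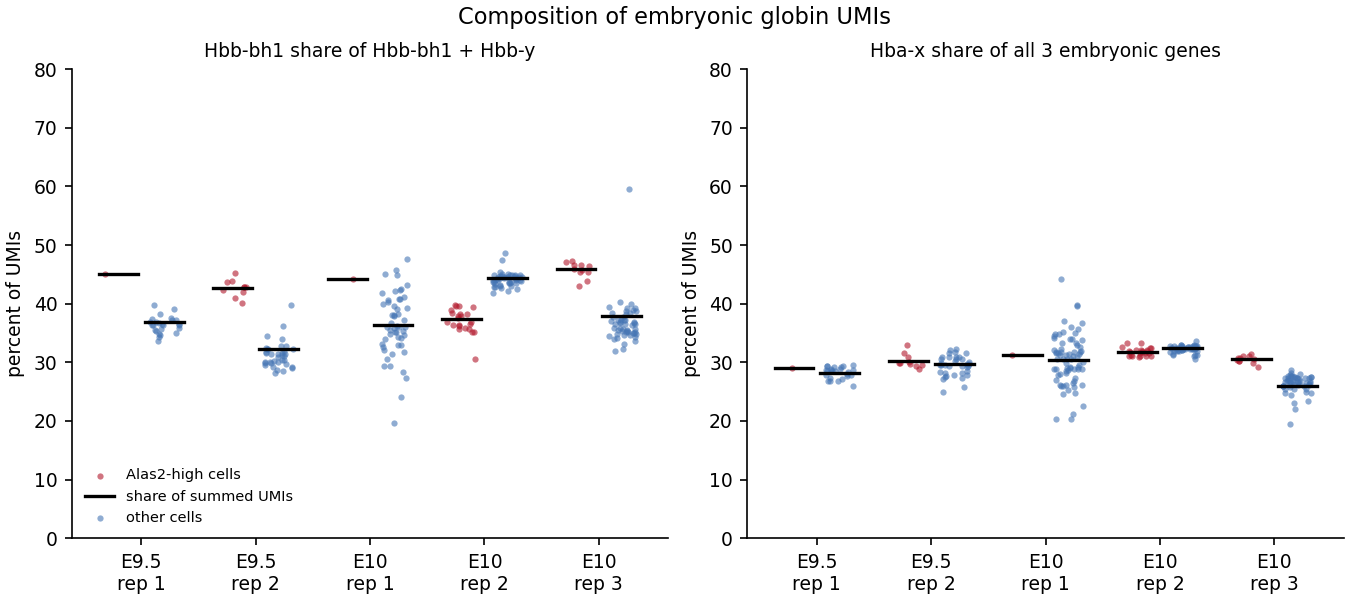
Percent of UMIs given by Hbb-bh1 among both embryonic beta-type genes (left) and by Hba-x among all 3 embryonic genes (right) in cells with at least 100 UMIs of the genes, red for Alas2-high and blue for other cells, with black bars for the share of summed UMIs. The Hbb-bh1 bar of Alas2-high cells lies above that of other cells except in E10 replicate 2, where it lies below. In the Hbb-bh1 share single cells of the classes overlap in E10 replicates 1 and 3, with other cells drawn at up to 47.7% and 59.6%.

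Between stages the Hbb-bh1 share of Alas2-high cells was 43.9 ± 1.67% at E9.5 (SD, n = 2 batches) and 42.4 ± 4.52% at E10 (n = 3), with an exact permutation p of 0.9. Without E10 replicate 2 the difference changed sign, from -1.45 to 1.11 percentage points. Within E10 replicate 2, Alas2-high cells with more globin UMIs had higher Hbb-bh1 shares, with a rho of 0.77 over 23 cells, and 0.48 after the tag correction. In E9.5 replicate 2 and E10 replicate 3 the rho was 0.07 and 0.44, and -0.01 and 0.19 after the correction.

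The share of alpha-type among embryonic globin UMIs varied less. Hba-x made up 29.1% and 30.1% of the 3 genes in Alas2-high cells at E9.5 and 31.3%, 31.8% and 30.5% at E10. In other cells it made up 28.1% and 29.6% at E9.5 and 30.4%, 32.4% and 26.0% at E10. Single cells of the classes did not overlap in E10 replicate 3, where 11 Alas2-high cells had 29.3% to 31.4%. The 52 other cells of that batch had 19.5% to 28.7%. In the remaining batches the classes overlapped. Neither the stages (1.61 percentage points, exact permutation p = 0.2) nor the classes (1.26 points, exact paired p = 0.1875) differed beyond what the exact tests could separate from the spread of the batches. This share was added after the data were seen, because the planned shares of embryonic among alpha-type and beta-type UMIs were 100% to within 10 UMIs and left nothing to compare.

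The stretches just upstream of 4 of the genes are shown, 120 bases up to the start of the RefSeq transcript, because the embryonic genes rose together while the adult-type rows stayed at or near 0. Motifs were searched on both strands. The GATA factor motif was spelled AGATAA in one form and as TGATAA in the other, the box bound by KLF factors CCNCNCCC, the box of NF-Y CCAAT, the TATA box in its usual form TATAAA and in the form known from beta-type globin genes CATAAA. Capitals mark matches. Promoter windows of 6 members are in the RefSeq table of GRCm38.p6. The Hba-x stretch is chr11:32276480-32276599 on the forward strand, the Hba-a2 stretch chr11:32296372-32296491 on the forward strand, the Hbb-y stretch chr7:103853208-103853327 on the reverse strand and the Hbb-bs stretch chr7:103827929-103828048 on the reverse strand.
Hba-x: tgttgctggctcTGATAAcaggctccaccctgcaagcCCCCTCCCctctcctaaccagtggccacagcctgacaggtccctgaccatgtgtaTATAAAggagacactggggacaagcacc
Hba-a2: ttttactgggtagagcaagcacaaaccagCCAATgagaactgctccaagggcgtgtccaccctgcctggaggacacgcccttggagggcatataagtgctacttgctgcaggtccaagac
Hbb-y: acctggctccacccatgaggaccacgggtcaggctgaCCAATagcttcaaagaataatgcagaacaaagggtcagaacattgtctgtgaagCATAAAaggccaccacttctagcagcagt
Hbb-bs: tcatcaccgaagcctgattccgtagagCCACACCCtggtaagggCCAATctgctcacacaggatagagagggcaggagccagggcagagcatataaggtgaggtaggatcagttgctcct
In windows of 250 bases before to 50 bases after the start, CCAAT occurred in 5 of the 6 members, all but Hba-x, and in 37.4% of 32851 promoters. TGATAA occurred in 4 of 6 (Hba-x, Hba-a1, Hba-a2 and Hbb-y) and in 9.05% of promoters, and CCNCNCCC in 3 of 6 (Hba-x, Hbb-bs and Hbb-bt) and in 49.5%. No set of letters searched was found in all 6 or separated the embryonic from the adult-type members.

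Genes were ranked by how closely their level followed the summed globin CPM from cell to cell. By the median over 5 batches of Spearman's rho across kept cells, among 8812 genes with a mean of at least 10 CPM, the first 10 were Mt1 (0.74), Mt2 (0.73), Alas2 (0.72), Kel (0.70), Car2 (0.69), Hemgn (0.68), Blvrb (0.68), Acp5 (0.64), Cited4 (0.62) and Slc25a37 (0.62). Mt1 and Mt2 are metal-binding metallothioneins, Kel a red cell surface antigen, Car2 a carbonic anhydrase and Blvrb a reductase of haem breakdown. In E10 replicate 1, where 86 of 87 cells had little globin, the rho fell between -0.39 for Car2 and 0.28 for Hemgn. Cells of both classes and of 1 library enter each value, so these are descriptions.

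Among Alas2-high cells, genes that followed the Hbb-bh1 share were ranked the same way in the 3 batches with at least 10 such cells, among 2309 genes with a mean of at least 50 CPM. The highest median rho belonged to Mrpl17 (0.76), Cluh (0.74), Phb2 (0.72), Kif15 (0.71) and Srsf3 (0.70). The lowest belonged to Vdac1 (-0.57), Anapc2 (-0.54), St3gal5 (-0.54), Dlk1 (-0.51) and BC003965 (-0.50). Phb2, a prohibitin of the mitochondrial inner membrane, reached 0.81 in E9.5 replicate 2 and 0.69 and 0.72 in replicates 2 and 3 of E10, whereas Vdac1, a channel of the outer membrane, had -0.65, 0.28 and -0.57 in that order. With 10 to 23 cells a batch, such values at the ends of 2309 genes are a description only.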

How the data were processed

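Single cells of 5 batches were profiled with a modified STRT-seq protocol, per the labels' protocols, in which an oligo-dT primer carries a cell barcode and a UMI, each of 8 bases. Per the submitters' processing notes, the authors worked with CASAVA 1.8, TopHat2 2.0.12, HTSeq (no version given) and the mm10 genome. The deposited values are UMI counts for 24411 genes and 95 spike-in rows, which were dropped. No strand setting is given in the sources used here, and batch numbers alone tie columns to samples. The members, lists and tests were chosen with earlier results of these data known.

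Wells with at least 1000 genes and 30000 UMIs were kept, and 111 columns held 0 UMIs. No doublet caller was run, because cells were picked by hand. Counts were summed per batch and class (at least 5 cells) and tested with edgeR 4.0.16 in R 4.3.3 (filterByExpr, TMM, quasi-likelihood test, Benjamini-Hochberg at 0.05), with DESeq2 1.42.0 as an alternative. The class fit had a block for batch, because its pairs of sums share a collection and a library. Stage fits had no such term, because each batch holds cells of 1 stage and the batch effect and the stage effect cannot be told apart except through the replicates. Standard errors of edgeR fits are the log2 fold change divided by the square root of F, and those of DESeq2 are its own. The fits were tested on simulated data. Levels and shares per batch were compared by exact permutation in Python 3.11.15. The tag correction, added after the data were seen, assumed 65536 equally likely tags. Genes named beyond the members are those of the globin family, the 5 with the largest change per list and direction past the threshold, and those most like the members by rho, and some of these are not reported here. Coding sequences came from GENCODE transcripts and promoters from RefSeq.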

Additional observations from a re-analysis of the deposited data

Results flagged for a closer look

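Globin UMIs also appeared in wells that were left out of every comparison because they had under 30000 UMIs or under 1000 genes, above the 3 counts that a count of 0 allows. In 5 such wells of E9.5 replicate 1 the 3 embryonic genes made up 9.77% of summed UMIs, and in 4 wells of E9.5 replicate 2 they made up 5.79%. In 9 wells of E10 replicate 1 the value was 0.295%, in 24 wells of E10 replicate 2 it was 16.96% and in 33 wells of E10 replicate 3 it was 15.3%. Some of these wells repeat the profile of their namesake in a different batch, in numbers 2, 1, 0, 20 and 0 in the order of the batches, a check made only at 5000 UMIs or more. Without them the value was 4.66% in 3 wells of E9.5 replicate 1, 9.91% in 3 wells of E9.5 replicate 2 and 3.93% in 4 wells of E10 replicate 2, the last below the 4.82% of the other kept cells of that batch. The highest share in a well, 51.8% in E10 replicate 2, was in a repeat. The wells were not split by Alas2, and 1, 1, 0, 3 and 8 of them in the order of the batches reached 400 CPM. Those under 400 CPM held 2.52%, 9.91%, 0.295%, 9.14% and 12.4% globin with repeats counted. In the shallowest wells a single Alas2 UMI exceeds 400 CPM.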

How the results depend on the processing

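In the comparison of Alas2-high with other cells, all 3 embryonic genes were called under 14 of 15 alternatives, with log2 fold changes from 3.08 to 5.18, including 3 called with no replicate block. Leaving out 1 batch gave 0 to 3 members called. The number of genes called in all, 2872, fell to 1063 without E9.5 replicate 2, 1688 without E10 replicate 3, 1743 with no replicate block and 322 at an Alas2 limit of 100 CPM. Between stages in Alas2-high cells no member was called under any of 11 alternatives, and genes called, 32, became 9 with DESeq2, 1 with a minimum of 1 cell, and 10 and 14 at Alas2 limits of 100 and 1000 CPM. At 100 CPM the Hbb-y value was -0.0055. Leaving out a batch was not possible there, as no spread or no E9.5 batch was left. In other cells no member was called under 16 alternatives. When 1 batch was left out, log2 fold changes ran from -1.57 to 1.68 for Hba-x, -1.18 to 1.68 for Hbb-bh1 and -1.45 to 1.29 for Hbb-y. Without E10 replicate 2 the values were -1.57 (Hba-x), -1.18 (Hbb-bh1) and -1.45 (Hbb-y), and without E9.5 replicate 1 that of Hbb-y was -0.0083. The stage difference in the Hbb-bh1 share ran from -3.16 to 1.11 points when 1 batch was left out and was -4.26 after the tag correction. The class difference stayed positive, from 3.09 to 8.61 points. The causes were not tested. No paired analysis was possible between stages because replicate numbers there follow accession order. Over all Alas2-high cells 3 counts equal 0.169 CPM. That level applies to adult-type rows with 0 UMIs, not to Hba-a2 with 8, and takes no account of reads that match both copies of a pair.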
